A study of Homo sapiens with 20 samples.

Results

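The 4 HOX clusters were examined gene by gene in human lung cancer cell lines treated with DAC or left as Mock. DAC (decitabine) is a cytidine analogue that traps DNA methyltransferases, so that methylation is lost as cells divide. The members were all rows of the expression table whose symbol is HOX, then A, B, C or D, then a number, which left out the antisense genes. There were 39 such genes in 40 of 36076 rows, with 11 genes in the HOXA cluster, 10 in HOXB, 9 in HOXC and 9 in HOXD. HOXD4 stood under 2 Ensembl identifiers, and its second row held at most 4 reads in any library. mRNA-seq covered 6 lines (A549, CL1-0, CL1-5, PC9, H1299 and H1792), and Omni-ATAC-seq, which cuts open chromatin with a transposase, covered 4 of them (A549, CL1-5, PC9 and H1299). Each line had 1 Mock library, given PBS, and 1 DAC library, from cells exposed to 100 nM decitabine for 72 h and then kept for 3 days without drug. The labels name no other agent or allele in either arm. Cell lines were therefore the replicates. CL1-5 is an invasive subline selected from CL1-0, so these lines share an origin.

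HOX genes encode homeodomain transcription factors that give cells their position along the body axis. Genes at the 3' end of a cluster (low paralog numbers) act anteriorly and early, and genes at the 5' end (high numbers) act posteriorly and late, an order called colinearity. HOX proteins bind DNA with the TALE partners PBX, MEIS and PKNOX, Polycomb complexes keep silent clusters closed, and MLL complexes keep active clusters open. In the lung, HOXA5 and HOXB5 take part in the patterning and branching of the developing airways, and genes of the 5' end are mainly known from the limbs, the genital tract and the hindgut.

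In the GRCh37 annotation (GENCODE), HOXA ran from chr7:27132612-27239710 on the minus strand and HOXB from chr17:46605888-46806112, also on the minus strand. HOXC ran from chr12:54332615-54449814 and HOXD from chr2:176957449-177055635, both on the plus strand. The annotated span of 22 of the 39 genes overlaps that of another HOX gene, among them HOXA9, HOXB4, HOXD10 and HOXD11, and antisense transcripts run through the clusters. The strand setting of the authors' counting was not given in the sources used here, so reads in shared stretches may be split between such neighbours.

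Libraries held 22234485 to 25303899 reads on genes, apart from the H1299 pair with 52634234 and 59735913. In H1299, 81.9 and 85.5% of the read numbers from 1 to 20 were even, against 39.2 to 41.5% elsewhere, and the part of this in the H1299 values was not tested; counting intervals assume single reads. The lung and epithelial identity of the lines was uneven. The 6 epithelial markers summed to 3590 FPKM (fragments per kilobase of transcript, scaled to library depth) in Mock A549 (2230 after DAC) and 2570 in Mock PC9 (1790). They summed to 293 in Mock H1792 (329), 144 in Mock CL1-5 (140), 112 in Mock H1299 (672) and 0.986 in Mock CL1-0 (3.05). The 3 mesenchymal markers summed to 493 in Mock H1299 and 266 after DAC. There, VIM went from 481 to 255 FPKM, ZEB1 from 1.31 to 1.34 and CDH2 from 10.3 to 9.11. The mesenchymal sum also fell in A549 (131 to 95.5), CL1-0 (125 to 109) and CL1-5 (363 to 301). It rose in PC9 (6.13 to 12.5) and H1792 (516 to 564). The 6 alveolar and lung lineage markers summed to between 0.387 and 17.9 FPKM in Mock. Among them, the lung regulator NKX2-1 was at most 0.335 FPKM in Mock. FOXA2 stood at 17.3 FPKM in Mock A549 and 10.8 in Mock CL1-5, and at most 0.976 in the other Mock libraries. The summed leukocyte markers lay between 0.133 and 4.23 FPKM in Mock and between 0.212 and 7.5 after DAC, with CD14 of A549 (4.23 and 7.38 FPKM) at the top. The summed endothelial markers were at most 0.36 FPKM in Mock and 1.74 after DAC. The summed fibroblast markers were at most 3.01 FPKM in Mock and 3.5 after DAC outside H1792, where they were 72.2 and 92.2. The part of these shifts in HOX levels was not tested. The ATAC libraries labelled CL1-5 and PC9 went against the mRNA of those lines: 143 genes stood at 5 FPKM or more in Mock PC9 and under 0.1 in Mock CL1-5, and a Mock promoter peak was found for 92.3% of them under the label CL1-5 but for 51.7% under the label PC9. For 80 genes with the opposite mRNA pattern the shares were 62.5% and 87.5%. They are called the libraries labelled CL1-5 and PC9 throughout.

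In Mock cells, HOXB had 4 to 8 of its 10 genes at 1 FPKM or more in each line, HOXA 0 to 7 of 11, HOXC 2 to 6 of 9 and HOXD 0 to 3 of 9. HOXB7 was the highest HOX gene in 4 of 6 lines (A549, CL1-5, PC9 and H1299), HOXA5 in CL1-0 and HOXB9 in H1792. HOXB5, HOXB7 and HOXB8 reached 1 FPKM in all 6 lines, and 9 genes reached it in none: HOXB1, HOXC5, HOXC12, HOXD1, HOXD3, HOXD4, HOXD10, HOXD11 and HOXD12. HOXB1, a hindbrain gene, and HOXD12, a limb gene, had at most 2 reads in any of the 12 libraries. The number of HOX genes at 1 FPKM or more was 22 in CL1-0, 21 in H1299, 17 in A549, 16 in H1792, 13 in CL1-5 and 10 in PC9.

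**Figure D1:**
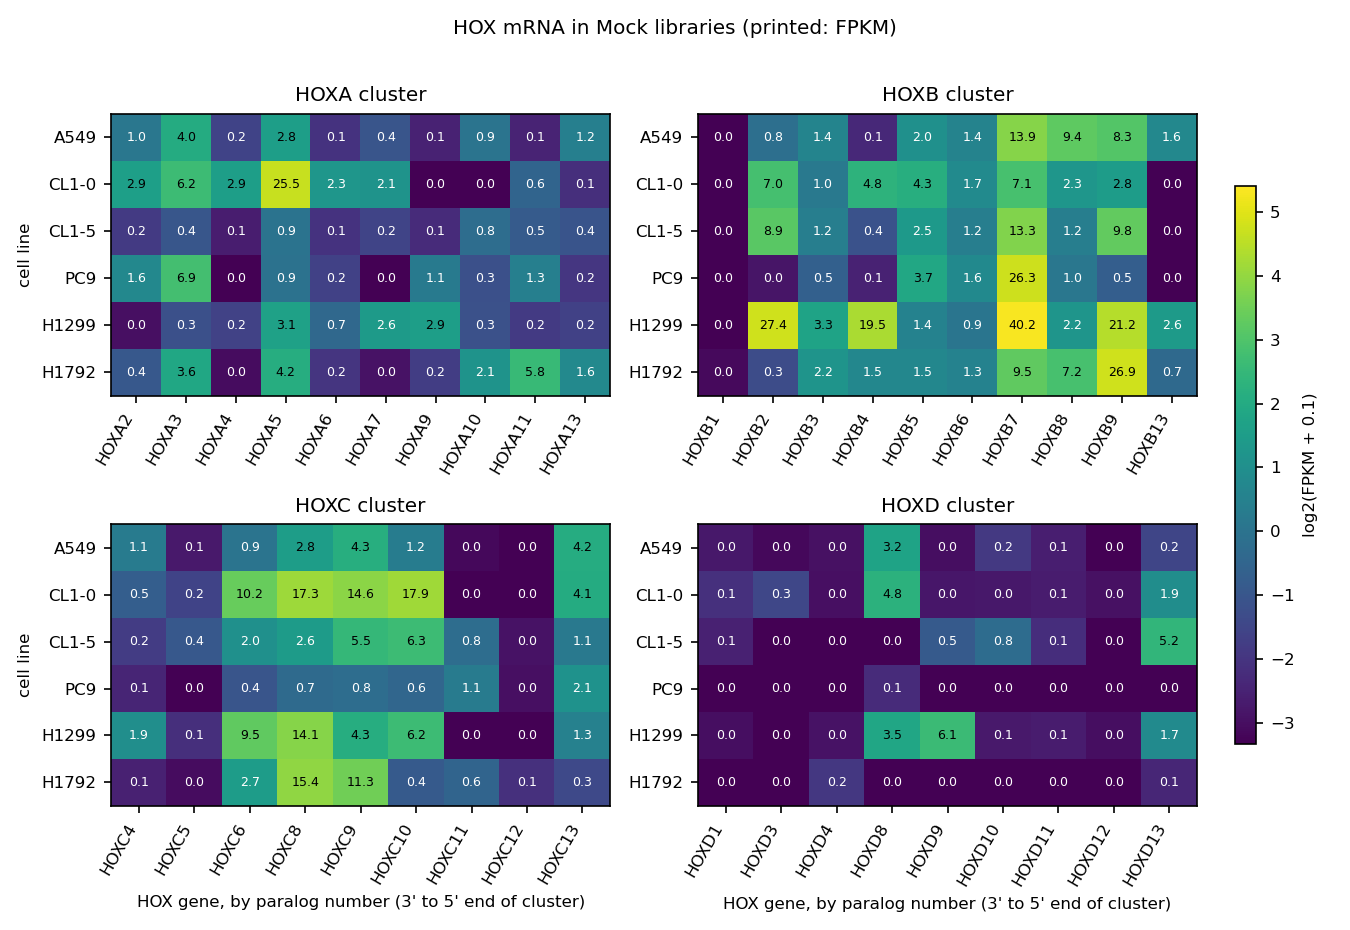
FPKM of 38 HOX genes in the 6 Mock libraries, with 1 panel per cluster, lines as rows and genes in order of paralog number as columns; the colour is log2(FPKM + 0.1) and the printed value is FPKM. HOXB7 was 7.12 FPKM or more in each line, and HOXD was at 0.11 FPKM or less in PC9.

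In the HOXA cluster, the lines differed in which genes were used, without a clean split between the ends. In CL1-0, HOXA5 stood at 25.5 FPKM and HOXA3 at 6.24. HOXA9 and HOXA10 had 0 reads there, while HOXA11 stood at 0.606 FPKM. In its subline CL1-5, no HOXA gene reached 1 FPKM, and HOXA5 stood at 0.908. H1792 was the line with the highest HOXA11, a gene of kidney, uterus and limb, at 5.84 FPKM, and HOXA10, at 2.11. It also held HOXA5 at 4.18 FPKM and HOXA3 at 3.58. PC9 combined HOXA3 at 6.9 FPKM with HOXA9 at 1.1 and HOXA11 at 1.27, and held no read of HOXA4 or HOXA7. A549 and H1299 had 4 HOXA genes each at 1 FPKM or more, led by HOXA3 at 3.98 FPKM in A549 and by HOXA5 at 3.07 in H1299. The whole cluster summed to between 4.48 FPKM in CL1-5 and 54.3 in CL1-0.

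In the HOXB cluster, HOXB7 ranged from 7.12 FPKM in CL1-0 to 40.2 in H1299, with a median of 13.6. HOXB9, a gene of the thoracic region, ranged from 0.503 FPKM in PC9 to 26.9 in H1792, with a median of 9.06. HOXB2 and HOXB4 were the most divided, with HOXB2 at 27.4 FPKM in H1299, 8.88 in CL1-5, 7.02 in CL1-0, 0.819 in A549, 0.311 in H1792 and 0.0412 in PC9. HOXB4, known for its effect on blood stem cells, stood at 19.5 FPKM in H1299, 4.83 in CL1-0, 1.53 in H1792, 0.363 in CL1-5, 0.0994 in A549 and 0.0768 in PC9. HOXB3 (0.542 to 3.27 FPKM), HOXB5 (1.36 to 4.3) and HOXB6 (0.947 to 1.72) stayed within narrower limits than HOXB2 and HOXB4. HOXB13, a prostate and hindgut gene that lies apart from the others, had 0 reads in Mock CL1-0, CL1-5 and PC9 and stood at 2.61 FPKM in H1299.

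In the HOXC cluster, the leading gene was HOXC8 in H1299 and H1792, HOXC9 in A549, HOXC10 in CL1-0 and CL1-5 and HOXC13 in PC9. HOXC8, which acts in the brachial region, had the highest mean of the cluster, 8.83 FPKM over 6 lines, and ranged from 0.713 in PC9 to 17.3 in CL1-0. HOXC10 stood at 17.9 FPKM in CL1-0 and under 1 in PC9 and H1792. HOXC11 was highest in PC9 (1.14 FPKM), CL1-5 (0.769) and H1792 (0.605), and HOXC13, a hair and nail gene, was above 1 FPKM in 5 lines and 0.283 in H1792.

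In the HOXD cluster, PC9 and H1792 had 0 to 6 reads per gene in Mock. HOXD8 had the highest mean of the cluster over 6 lines, 1.945 FPKM, at 4.82 FPKM in CL1-0, 3.51 in H1299 and 3.23 in A549, and had 0 reads in CL1-5 and H1792. HOXD9 reached 6.08 FPKM in H1299 and was under 0.5 elsewhere. HOXD13, the gene of the digits, was highest in CL1-5 at 5.19 FPKM, followed by CL1-0 at 1.85 and H1299 at 1.69. A549 had the opposite order to CL1-5, with HOXD8 at 3.23 FPKM and HOXD13 at 0.25.

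Whether lines differed by more than the spread left after line and treatment were fitted was tested with the moderated F test of limma on log2(FPKM + 0.1), over the 5 lines without H1792. A gene was tested where its mean was at least 0.1 FPKM, which 33 HOX genes met; HOXB1, HOXC12, HOXD1, HOXD3, HOXD4 and HOXD12 did not. The lines differed for 30 of the 33 (adjusted p under 0.05), against 76.6% of the 22603 genes tested. The exceptions were HOXB3 (adjusted p = 0.125), HOXB5 (0.114) and HOXB6 (0.59). With a filter of at least 1 FPKM, the lines differed for 18 of 21 HOX genes, against 10679 of the 13233 genes tested. The order of neighbouring lines was not tested, and 1 library per line and treatment gives no spread within a line. In such bulk samples, fewer cells using a gene and less RNA per cell cannot be told apart.

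Over the 5 lines, DAC did not move any HOX gene past the threshold: limma with the line as a block called 0 of 33 higher and 0 lower, against 0.119% of all genes higher (27 genes) and 0.0% lower. At an unadjusted p under 0.05, 4 HOX genes were higher (HOXA9, HOXD11, HOXD10 and HOXD13) and 0 lower, against 8.07% and 4.4% of all genes. The count of 4 became 2 without CL1-0 and 2 with a mean of at least 1 FPKM. The count of 0 lower became 1 without CL1-5 and 2 without PC9. limma-voom on the reads recovered from the table also called 0 HOX genes, with 4 at an unadjusted p under 0.05, and HOXA9 was not among these (unadjusted p = 0.0603). The fitted change was positive for 23 genes and negative for 10, with a median of 0.18 on the log2 scale beside 0.07 over all genes tested. Without PC9 the split was 20 to 13. Under quantile normalization the split was 17 to 16, with medians of 0.04 and -0.03, and 1 gene was higher and 1 lower at an unadjusted p under 0.05. By cluster, 7 of 11 HOXA genes, 7 of 9 HOXB genes, 4 of 8 HOXC genes and 5 of 5 HOXD genes had a positive fitted change. The median over all genes in that fit, 0.07, was itself above 0. HOXD8 and HOXD9 turned negative when 1 line was left out, at -0.14 and -0.068 at the lowest. HOXD10 and HOXD11 overlap and may share reads, so the HOXD genes are not separate counts.

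**Figure D2:**
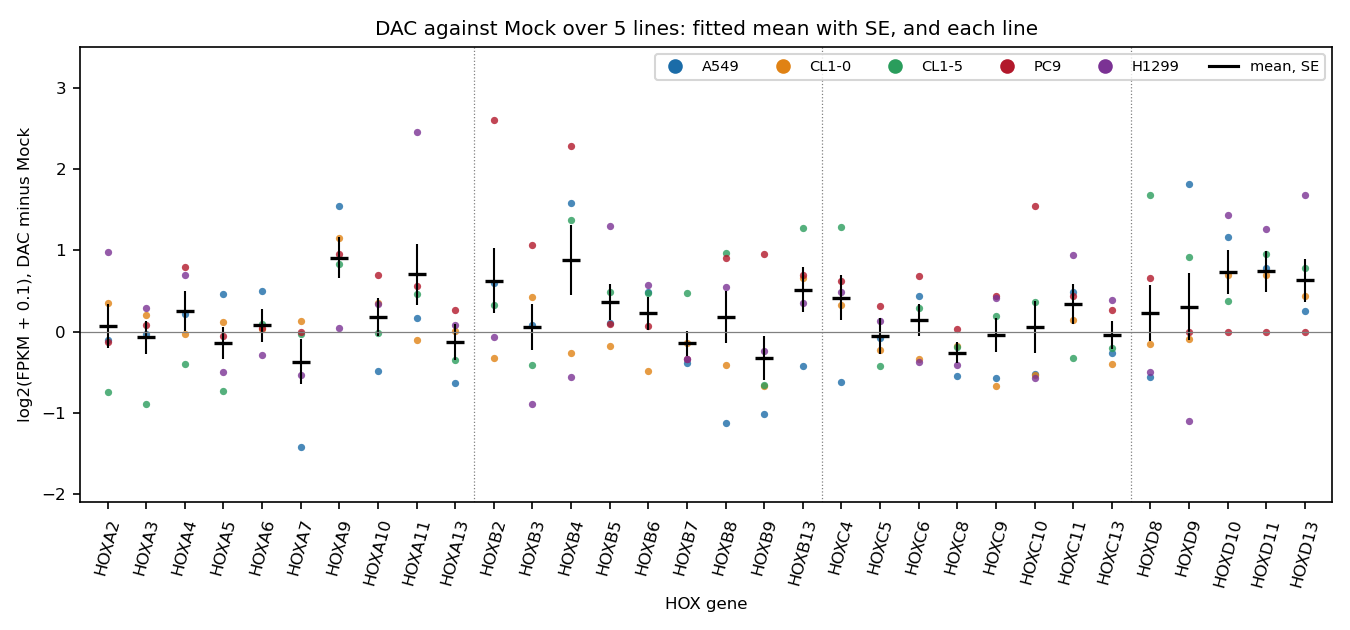
Change of 32 HOX genes after DAC on the log2(FPKM + 0.1) scale; dots are lines and black bars the limma mean over 5 lines with its SE, and dotted lines separate the clusters. The means ran from -0.37 for HOXA7 to 0.91 for HOXA9, and dots of both signs were common within a gene.

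HOXA9, a regulator of blood progenitors, had the largest fitted change of its cluster. Its Mock and DAC levels were 0.077 and 0.418 FPKM in A549, 0 and 0.123 in CL1-0, 0.11 and 0.272 in CL1-5, 1.1 and 2.225 in PC9 and 2.9 and 3.005 in H1299. The mean was 0.836 ± 1.24 FPKM (SD, n = 5) in Mock and 1.21 ± 1.32 after DAC, so the groups overlapped widely, but DAC was the higher value in each of the 5 lines and in H1792 (0.2 and 1.05 FPKM). The fitted change was 0.91 ± 0.25 (SE) on the log2 scale, with an adjusted p of 0.278. The ratio was smallest where HOXA9 was highest, in H1299, at 1.04 (95% exact interval 0.913 to 1.18, counting error only). The Mock value enters both the level and the ratio, and this order was not tested. In CL1-0, 0 reads in Mock and 11 after DAC put the DAC level at least 2.92-fold higher, taking 3 reads as the limit of a count of 0.

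HOXD10, HOXD11 and HOXD13 are the HOXD genes with an unadjusted p under 0.05. HOXD13 went from 0.25 to 0.318 FPKM in A549, from 1.85 to 2.55 in CL1-0, from 5.19 to 8.99 in CL1-5 and from 1.69 to 5.63 in H1299, and had 0 reads in both libraries of PC9. HOXD10 went from 0.173 to 0.514 FPKM in A549, from 0.0472 to 0.138 in CL1-0, from 0.754 to 1.01 in CL1-5 and from 0.052 to 0.309 in H1299. HOXD11 stayed at or under 0.332 FPKM in each library, with 3 to 7 Mock reads and 10 to 31 DAC reads in these 4 lines. DAC was the higher value in 4 of 5 lines for each of the 3 genes, and the fifth, PC9, was at 0 in both arms. The fitted change was 0.63 ± 0.26 (SE) for HOXD13, 0.73 ± 0.27 for HOXD10 and 0.74 ± 0.26 for HOXD11, with adjusted p of 0.388, 0.356 and 0.331. Without H1299 that of HOXD13 was 0.37. HOXD10 and HOXD11 overlap and may share reads. HOXD9, their neighbour, went the other way in H1299, from 6.08 to 2.79 FPKM, and had 1 read in Mock and 16 after DAC in A549.

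These promoters carried CpG dinucleotides, the sites whose methylation DAC reduces. The 250 bases before the start site are shown for the 4 genes with the smallest unadjusted p and for HOXA4, whose start had an ATAC peak after DAC but not in Mock in 2 lines, in 5' to 3' direction with CpG in capitals.
HOXA9: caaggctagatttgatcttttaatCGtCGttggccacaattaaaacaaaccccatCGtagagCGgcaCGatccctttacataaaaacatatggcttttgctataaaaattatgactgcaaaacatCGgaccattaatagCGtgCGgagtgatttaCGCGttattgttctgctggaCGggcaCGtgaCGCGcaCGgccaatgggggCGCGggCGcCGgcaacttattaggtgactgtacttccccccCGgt
HOXD10: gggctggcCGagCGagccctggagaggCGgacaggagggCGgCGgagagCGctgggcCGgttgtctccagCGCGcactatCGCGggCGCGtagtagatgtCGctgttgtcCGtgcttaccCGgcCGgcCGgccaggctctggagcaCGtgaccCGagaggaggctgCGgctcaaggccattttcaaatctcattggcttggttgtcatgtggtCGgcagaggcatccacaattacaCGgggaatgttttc
HOXD11: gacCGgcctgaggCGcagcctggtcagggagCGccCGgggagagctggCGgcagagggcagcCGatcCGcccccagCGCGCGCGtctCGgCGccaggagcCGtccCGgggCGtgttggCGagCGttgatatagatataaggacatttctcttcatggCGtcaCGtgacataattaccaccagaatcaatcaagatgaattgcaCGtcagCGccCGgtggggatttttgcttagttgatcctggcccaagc
HOXD13: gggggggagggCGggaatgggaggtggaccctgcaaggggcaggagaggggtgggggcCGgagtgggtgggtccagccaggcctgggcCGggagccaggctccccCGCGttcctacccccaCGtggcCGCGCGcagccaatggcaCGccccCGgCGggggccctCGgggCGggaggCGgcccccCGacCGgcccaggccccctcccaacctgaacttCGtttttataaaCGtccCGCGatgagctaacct
HOXA4: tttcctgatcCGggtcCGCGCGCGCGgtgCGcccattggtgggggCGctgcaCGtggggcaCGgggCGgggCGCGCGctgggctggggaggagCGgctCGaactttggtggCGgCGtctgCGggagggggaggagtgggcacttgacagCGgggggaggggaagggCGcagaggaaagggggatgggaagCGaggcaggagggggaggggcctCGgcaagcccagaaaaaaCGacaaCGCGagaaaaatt

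The sequences are from RefSeq (GRCh38.p14) and each matched GRCh37 at 1 place, HOXA9 at chr7:27205157-27205406 and HOXA4 at chr7:27170377-27170626 on the minus strand, HOXD10 at chr2:176981256-176981505, HOXD11 at chr2:176971758-176972007 and HOXD13 at chr2:176957199-176957448 on the plus strand. They hold 20 CpG for HOXA9, 23 for HOXD10 and for HOXD11, 21 for HOXD13 and 26 for HOXA4, and the median over 34788 distinct promoters of that length was 11. RefSeq promoters were at hand for 20 of the 39 genes, in 26 distinct sequences with a median of 19.5 CpG and a range from 0 to 40. HOXA13 held the 40, more CpG than 97.8% of all promoters, and 1 of the 7 HOXA3 starts held 0.

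HOXB4 had the largest fitted change of its cluster, 0.88 ± 0.43 (SE) with an adjusted p of 0.439, and 0.53 without PC9. It was higher after DAC where its Mock level was low, at 0.0994 and 0.495 FPKM in A549, 0.363 and 1.1 in CL1-5 and 0.0768 and 0.759 in PC9. It was lower where that level was high, at 4.83 and 4 FPKM in CL1-0 and 19.5 and 13.2 in H1299. The Mock value enters both the level and the change, and this order was not tested. Over all genes, 2-fold higher changes were more frequent at a mean of 0.1 to 1 FPKM (23.3% of pairs) than at 10 or more (3.1%). The ratio of DAC to Mock for HOXB4 was 9.88 in PC9 (95% exact interval 4.3 to 27.9, counting error only) and 0.679 in H1299 (0.646 to 0.713). HOXB2, its near neighbour, had 0.0412 and 0.758 FPKM in PC9 (2 and 41 reads) and 0.311 and 2.8 in H1792 (18 and 157 reads), 27.4 and 26.1 in H1299 and 8.88 and 11.1 in CL1-5. HOXC4 led its cluster with 0.42 ± 0.28 (SE), adjusted p = 0.548, and had DAC values above Mock in CL1-0, CL1-5, PC9 and H1299 and below Mock in A549 (1.15 and 0.711 FPKM).

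HOXB9 had the smallest fitted change of its cluster, -0.32 ± 0.27 (SE), adjusted p = 0.621, and its Mock and DAC values were 8.28 and 4.04 FPKM in A549, 2.76 and 1.7 in CL1-0, 9.84 and 6.21 in CL1-5, 21.2 and 18 in H1299, but 0.503 and 1.07 in PC9 and 26.9 and 36.2 in H1792. HOXB7 also had lower DAC values in 4 of 5 lines, with a fitted change of -0.14 ± 0.15 (adjusted p = 0.689), and a higher one in H1792 (9.47 and 15.4 FPKM). With H1792 added the fitted change of HOXB7 was -0.0039. HOXC8 was lower in 4 of 5 lines, at 17.3 and 15.3 FPKM in CL1-0 and 14.1 and 10.6 in H1299, with a fitted change of -0.26 ± 0.13 and an adjusted p of 0.451. HOXA7 had the lowest fitted change of all, -0.37 ± 0.27 (adjusted p = 0.585), with 20 reads in Mock A549 and 5 after DAC. Without A549 the fitted change of HOXA7 was -0.10 and that of HOXB9 -0.15, and without PC9 that of HOXB9 was -0.64. HOXA5 (-0.14 ± 0.2, adjusted p = 0.769) and HOXD8 (0.22 ± 0.34, adjusted p = 0.791) changed sign under other settings.

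**Figure D3:**
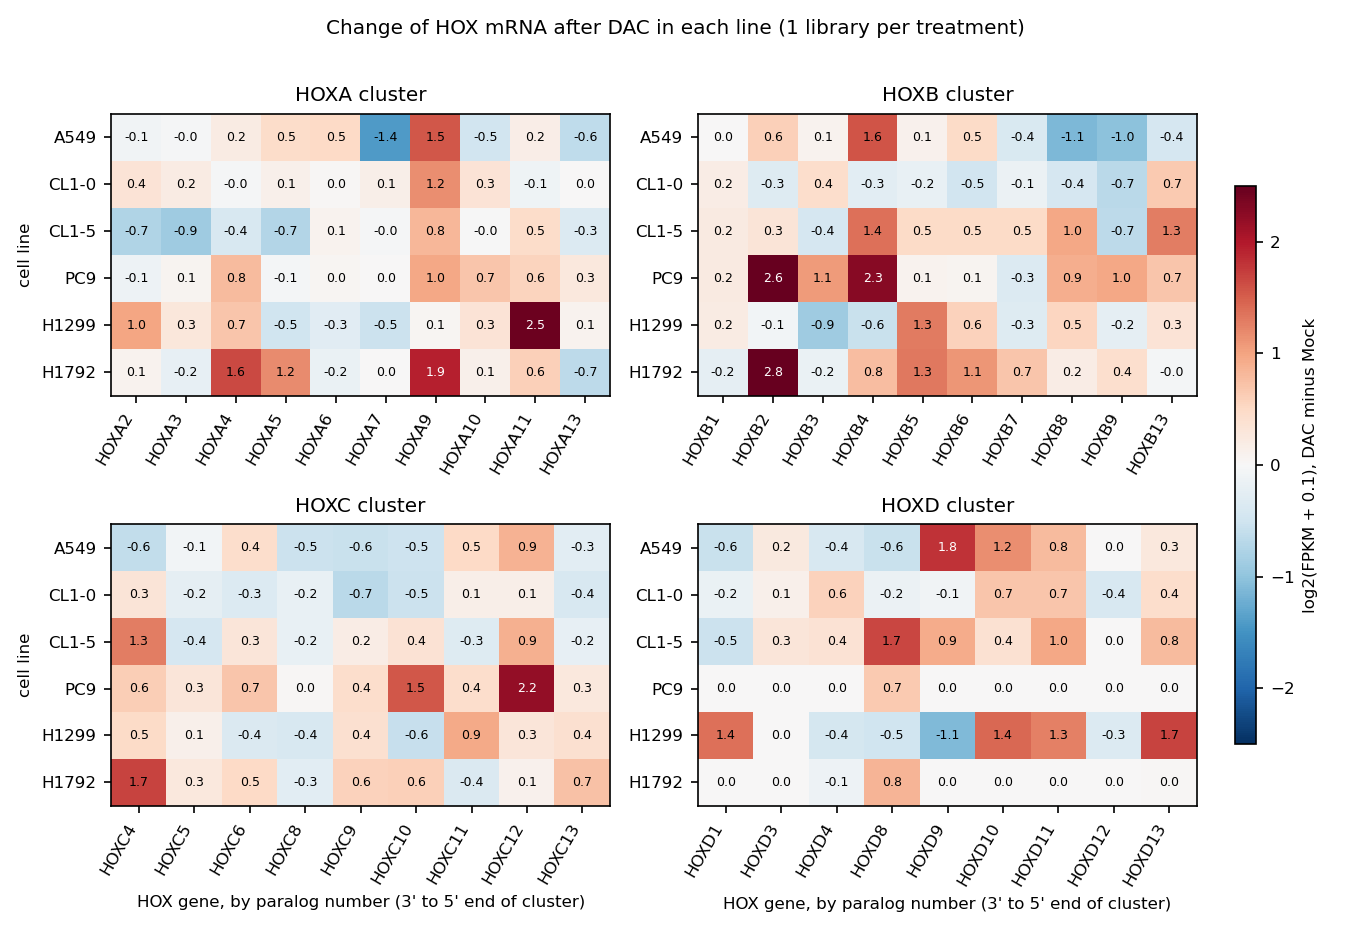
Difference between the DAC and the Mock library of each line on the log2(FPKM + 0.1) scale for 38 HOX genes, by cluster and paralog number; red is higher and blue lower after DAC, with 1 library per treatment and no replicate. The deepest red cells lie at HOXB2 in PC9 and H1792, HOXB4 in PC9 and HOXA11 in H1299, and HOXD genes other than HOXD8 are near 0 in PC9 and H1792.

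Within a line, a change is a description, since each arm was 1 library. Of the 33 genes, those past 2-fold higher numbered 4 in A549 (HOXA9, HOXB4, HOXD9 and HOXD10), against 15.5% of all genes, and those past 2-fold lower numbered 3 (HOXA7, HOXB8 and HOXB9), against 6.69%. In CL1-0, 1 gene was higher (HOXA9) and 0 lower, against 7.6% and 2.14%. In CL1-5, 4 were higher (HOXB4, HOXB13, HOXC4 and HOXD8) and 0 lower, against 7.25% and 5.05%. In PC9, 4 were higher (HOXB2, HOXB3, HOXB4 and HOXC10) and 0 lower, against 10.2% and 3.1%. In H1299, 5 were higher (HOXA11, HOXB5, HOXD10, HOXD11 and HOXD13) and 1 lower (HOXD9), against 8.18% and 3.15%. In H1792, 7 were higher (HOXA4, HOXA5, HOXA9, HOXB2, HOXB5, HOXB6 and HOXC4) and 0 lower, against 10.3% and 5.79%. As shares of 33 these are 12.1% higher in A549, CL1-5 and PC9, 3.03% in CL1-0, 15.2% in H1299 and 21.2% in H1792, so A549 and CL1-0 lay below their backgrounds and the other lines above. No gene passed 2-fold in the same direction in 4 or more lines, and HOXA9 and HOXB4 did so in 3. HOXC12 was too low to be tested, and its DAC value was above Mock in 6 of 6 lines, with 2 and 38 reads in PC9, 3 and 12 in CL1-5, 0 and 7 in A549, 0 and 4 in H1299, 0 and 1 in CL1-0 and 11 and 12 in H1792.

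The sum of 25 higher and 4 lower changes depended on how low levels were handled. With a pseudocount of 1 FPKM in place of 0.1, 4 were higher and 0 lower. HOXB8 in A549, at 9.4 and 4.28 FPKM, was then short of 2-fold. With a common FPKM sum per library, 30 were higher and 2 lower, and that scaling moved the median change of all genes by 0.285 in A549, 0.155 in CL1-0 and 0.147 in PC9. Set against genes of like level, the share of higher changes was near the background: of 75 pairs of a HOX gene and a line with a mean of 0.1 to 1 FPKM, 24% were past 2-fold higher, against 23.3% of all such pairs, and 1.33% lower, against 9.17%. From 1 to 10 FPKM, 8.43% of 83 pairs were higher, against 6.52%, and 3.61% lower, against 3.36%. Of the 18 pairs at 10 FPKM or more, 0 were past 2-fold, against 3.1% higher and 2.81% lower of all such pairs. Under 0.1 FPKM, 5.13% of 39 pairs were higher, against 9.77%, and 0 lower, against 4.08%.

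The median change of the HOX genes was 0.43 in PC9, 0.43 in H1792, 0.3 in CL1-5, 0.29 in H1299, 0.08 in A549 and -0.09 in CL1-0, beside medians over all genes between 0 and 0.07. In PC9, 25 of the 33 genes were higher and 3 lower, while 51.0% of all genes were higher. HOX genes with 3 reads or fewer became fewer in each of the 6 lines after DAC, from 10 to 6 in A549, 11 to 6 in CL1-0, 8 to 6 in CL1-5, 15 to 12 in PC9, 7 to 4 in H1299 and 11 to 9 in H1792. Over all genes the share at that level fell too, from 49% to 40.5% in A549, 48.8% to 42.7% in CL1-0 and 45.2% to 44.5% in CL1-5. It also fell from 48.9% to 43.7% in PC9, 52.4% to 47.2% in H1299 and 48.2% to 44.9% in H1792. The number of HOX genes at 1 FPKM or more went from 10 to 15 in PC9, where that of all genes went from 33.9% to 35.5%, and moved by at most 2 elsewhere.

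Of the genes that work with or on the HOX clusters, 0 passed the test in any list. The counts below at an unadjusted p under 0.05 stand beside 8.07% of all genes tested higher and 4.4% lower. For the TALE partners, 8 of 9 genes were tested, and 0 were at an unadjusted p under 0.05. For PRC2, which writes the repressive mark on silent HOX genes, 2 of 11 were higher at an unadjusted p under 0.05, SUZ12 with 0.35 ± 0.1 (adjusted p = 0.278) and AEBP2 with 0.34 ± 0.13 (0.369). For PRC1, which compacts such chromatin, 2 of 12 were, BMI1 with 0.35 ± 0.12 (adjusted p = 0.319) and RNF2 with 0.26 ± 0.11 (0.388), while the median of the list was -0.21. For the MLL complexes, 0 of 9 were, and of the 14 CDX and retinoid genes, which act upstream of HOX genes in the embryo, 10 were tested and 3 were higher at that level. These were the retinoid binding protein CRABP2 with 1.17 ± 0.35 (adjusted p = 0.29) and the retinoid degrading enzymes CYP26B1 with 0.89 ± 0.3 (0.326) and CYP26A1 with 0.69 ± 0.29 (0.393). Of the 3 ParaHox genes, relatives of the HOX family outside the clusters, PDX1 alone was tested (-0.22 ± 0.4, adjusted p = 0.824).

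Of 14 noncoding genes in the clusters, 10 were tested. At an unadjusted p under 0.05, 1 was higher and 1 lower, against 8.07% and 4.4% of all genes tested. HOTAIR, which lies on the opposite strand of HOXC, was higher in each of the 5 lines and lower in H1792 (0.108 and 0.0801 FPKM), with Mock and DAC levels of 1.87 and 2.41 FPKM in PC9 and at most 0.332 in the other 4, and a fitted change of 0.77 ± 0.24 (adjusted p = 0.299). HOXC-AS1 was lower, with -0.56 ± 0.24 (adjusted p = 0.399). HOTAIRM1, at the 3' end of HOXA, had 0.35 ± 0.37 (adjusted p = 0.685) and was highest in CL1-0, at 22.5 FPKM in Mock. Of the genes beside the clusters, PRAC2, next to HOXB13, had 1.38 ± 0.33 (adjusted p = 0.223), with 0 to 0.142 FPKM in Mock and 0.0627 to 0.963 FPKM after DAC over the 5 lines, and PRAC1 was at 0.634 FPKM in Mock H1299 and 0 in the other Mock libraries. Among the marker lists of cell identity, 0 genes passed the test, and those at an unadjusted p under 0.05 were all higher. They were 1 of 6 epithelial genes (EPCAM), 0 of 3 alveolar and lung lineage genes, 0 of 3 mesenchymal genes, 1 of 2 leukocyte genes, 1 of 2 endothelial genes and 2 of 2 fibroblast genes. Over all genes tested, 8.07% were higher at that level.

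In Omni-ATAC-seq, the peak lists assign each peak to 1 gene. A HOX gene counted as having a promoter peak where a listed peak lay within 3000 bp of its start. That number was 23 of 39 in Mock and 29 after DAC in A549, with 8 genes gained and 2 lost, against 7.31% and 3.7% of the 19148 genes in the lists. In the libraries labelled CL1-5 it was 23 and 25, with 6 gained and 4 lost, against 5.22% and 3.86%. In the libraries labelled PC9 it was 20 and 28, with 8 gained and 0 lost, against 7.01% and 3.49%. In H1299 it was 25 and 28, with 5 gained and 2 lost, against 7.13% and 3.68%. Over all listed genes, the Mock and DAC shares with a promoter peak were 72.0% and 75.6% for A549, 75.2% and 76.5% under the label CL1-5, 73.3% and 76.9% under the label PC9 and 67.5% and 70.9% in H1299. The DAC lists were longer in each line, and with equal numbers of peaks per line the counts became 23 and 23, 23 and 22, 20 and 20, and 25 and 21 in the same order.

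Which gene a peak is listed for can differ between the arms of a line. HOXA13 gained a listed peak in A549 and H1299, although a peak lay within 500 bp of its start in all 8 libraries, with a fold enrichment over background of 4.45 and 3.85 in those Mock libraries, where it was listed for HOTTIP, and 4.59 and 3.63 after DAC. HOXC12 gained a listed peak in 3 lines and HOXB1 in 2, with 0 gained at the start itself, and HOXD9 gained a listed peak in A549 and in the library labelled PC9.

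Counted at the canonical start, with any peak within 500 bp and a choice made after the data were seen, A549 had 19 HOX genes in Mock and 19 after DAC, with HOXD9 gained (3.2) and HOXA10 lost, against 4.42% and 1.84% of 18277 protein-coding genes. The libraries labelled CL1-5 had 15 and 17, with 6 gained and 4 lost, against 3.78% and 3.15%. Those labelled PC9 had 18 and 22, with 5 gained (HOXA4, HOXA5, HOXA11, HOXC4 and HOXD10) and 1 lost (HOXC9), against 4.6% and 1.73%. H1299 had 22 and 23, with HOXB13 and HOXC6 gained and HOXC5 lost, against 3.81% and 1.74%. HOXA4 is the gene gained in 2 lines under both definitions, in the libraries labelled CL1-5 (2.65) and PC9 (2.88), while A549 (4.03 and 4.21) and H1299 (6.07 and 5.43) had a peak in both arms. Its mRNA was at most 0.0742 FPKM in the 4 libraries of CL1-5 and PC9. With equal numbers of peaks, the counts at the start were 19 and 16, 15 and 12, 18 and 14, and 22 and 16, and the shares of all genes were also lower after DAC, at 71.4 and 69.0%, 72.4 and 68.4%, 71.2 and 68.8%, and 68.7 and 65.2%.

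**Figure D4:**
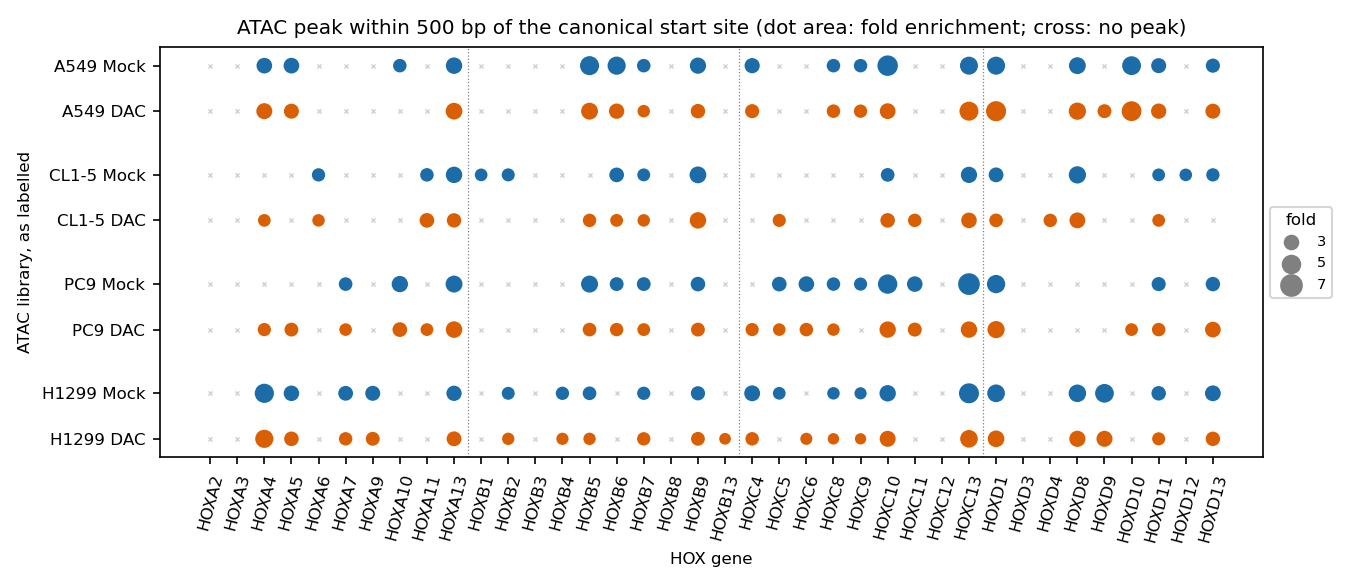
Peaks within 500 bp of the canonical start of 38 HOX genes in the 8 ATAC libraries, named as labelled; the dot area is the fold enrichment that the peak caller gave, blue is Mock, orange is DAC and a grey cross is no peak. HOXA13, HOXB7, HOXB9, HOXC10, HOXC13, HOXD1 and HOXD11 had a dot in each library.

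A peak at the start and a transcript did not always go together. Of the 7 genes with a peak at the start in all 8 libraries, HOXB7, HOXB9, HOXC10 and HOXC13 were widely used, whereas HOXD1 stayed at or under 0.23 FPKM and HOXD11 at or under 0.332. HOXA2, HOXA3, HOXB3, HOXB8, HOXC12 and HOXD3 had no such peak in any library, although HOXA3 reached 3.98 FPKM in Mock A549 and HOXB8 9.4. Of the HOX genes at 1 FPKM or more in Mock, 13 of 17 had a peak at the start in A549 and 17 of 21 in H1299 (HOXB4 there had 2.92-fold in Mock and no peak at its start in the other 3 lines), against 94.2% and 93.3% of all protein-coding genes at that level. For the mRNA of CL1-5 it was 7 of 13 with the library labelled CL1-5 and 10 of 13 with the one labelled PC9, against 92.9% and 94.1%. For the mRNA of PC9 it was 5 of 10 with the library labelled PC9 and 4 of 10 with the one labelled CL1-5, against 91.2% and 94.3%. HOXA3 has several starts in RefSeq, and the one at chr7:27190570-27190819 lay under a peak in all 8 libraries, from 3.16 to 7.46-fold, that the lists give to HOXA6.

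Peak gains and mRNA changes are set side by side for A549 and H1299. The labels of these ATAC libraries were taken as given and were not checked against mRNA. HOXD9 in A549 gained a peak of 3.2-fold at its start and went from 0.025 to 0.338 FPKM. HOXA10 in A549 lost a peak of 3.01-fold and went from 0.932 to 0.64 FPKM, while another RefSeq start of HOXA10, at chr7:27219481-27219730, had a peak of 6.46-fold in Mock and 5.29-fold after DAC. HOXB13 in H1299 gained a peak of 2.25-fold with 2.61 and 3.35 FPKM, and HOXC6 one of 2.42-fold with 9.47 and 7.32 FPKM. HOXC5 in H1299 lost a peak of 2.66-fold with 0.126 and 0.147 FPKM. HOXD13 in H1299, whose mRNA ratio of DAC to Mock was 3.34 (95% exact interval 2.86 to 3.91), had a peak of 4.11-fold in Mock and 3.42-fold after DAC.

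The clusters were denser in peaks than the genome, and DAC lists covered more of them. Peaks covered 6.69 to 8.52% of the bases of the 4 clusters in Mock and 7.84 to 10% after DAC, beside 0.936 to 1.68% and 1.34 to 2.01% of the genome. The covered bases of all clusters were higher after DAC in 4 of 4 lines, by 0.28 ± 0.08 (log2 ratio, mean ± SD, n = 4), and those of the genome by 0.4 ± 0.11. By cluster the ratio was 0.37 ± 0.21 for HOXA, 0.23 ± 0.11 for HOXB, 0.45 ± 0.09 for HOXC and 0.11 ± 0.55 for HOXD. HOXD covered 8264 bases in Mock and 5124 after DAC in the libraries labelled CL1-5, where the HOXD13 and HOXD12 start peaks were lost, and was higher after DAC in the other 3 lines. HOXA in the libraries labelled PC9 had the least coverage of HOXA in Mock, 5998 bases in Mock and 8639 after DAC. With equal numbers of peaks the mean ratio of all clusters was -0.14, with 0 of 4 lines higher, and that of the genome 0.09. No test was run on these 4 lines.

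**Figure D5:**
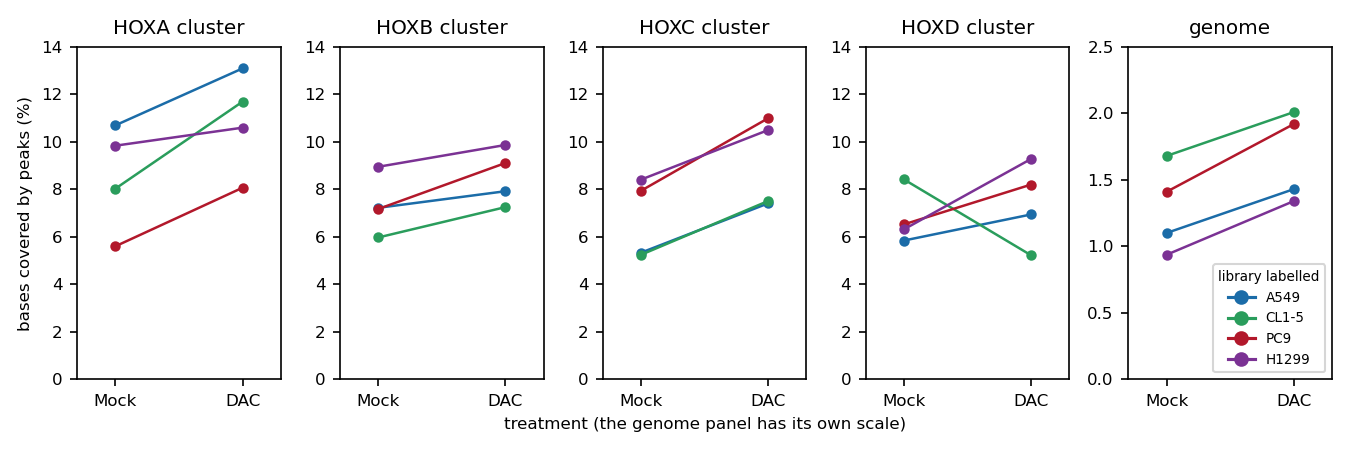
Percent of bases covered by ATAC peaks in each HOX cluster and in the genome, with a line joining the Mock and the DAC library of each cell line as labelled. HOXD in the libraries labelled CL1-5 went from 8.42 to 5.22%, and each other pair in the HOX panels was higher after DAC.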

How the data were processed

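mRNA-seq was available for Mock and DAC libraries of 6 lung cancer cell lines and Omni-ATAC-seq for 4, with 1 library per line and treatment. For mRNA-seq, the authors deposited FPKM per gene, from reads trimmed, aligned to hg19 and counted on a GENCODE annotation, and scaled by DESeq2 size factors. The authors also deposited there a mean normalized signal over the libraries, used here only to recover reads, and a log2 fold change, a test score and p-values of their own comparison, which were not used. Omni-ATAC-seq reads were aligned to hg19 (BWA), cleared of duplicates and mitochondrial reads, and turned by the authors into 1 set of broad peaks for every library (MACS2), with a gene assigned to each peak (ChIPseeker). Those deposited lists hold the fold enrichment of a peak, its score, and the −log10 of its p-value and q-value. The submitters' processing notes name TopHat2 2.1.1, BWA 0.7.17-r1188, DESeq2 1.24.0, Picard 2.21.4, SAMtools 1.9, MACS2 2.2.5 and ChIPseeker 1.20.0.

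Tests were run with limma 3.58.1 on log2(FPKM + 0.1), with the line as a block, a trend, a filter of mean FPKM of at least 0.1 over the 10 libraries of 5 lines and Benjamini-Hochberg adjustment over all genes tested. Libraries of the same line deviated together (correlation 0.731 to 0.9 within lines, at most 0.115 between), and each line was given both treatments. Whole reads were recovered from FPKM and the mean signal, and 100% of values came out whole within 0.01 of the read number. That limit is relative, so large read numbers pass it whatever their value, and it checks the low numbers only. Nothing states that libraries came from separate cultures. The p-values for DAC measure how far the difference between DAC and Mock varied from line to line. The F test of the lines uses that same leftover spread as its error. Ratio intervals are exact, cover counting error only and take each read as single. Given the mostly even read numbers of H1299, its intervals may be too narrow, which was not tested. Positions are GRCh37, and promoter sequences are RefSeq. The limma fit was run on simulated reads, in which a changed gene had the same fold in each of the 5 lines. That setting differs from these data, where the sign often differed between lines. Values of 1 HOX gene and 1 TALE gene are not reported here, though counts include them. HOX members and gene lists were chosen with earlier results of these data known. Genes named with values were, per cluster, the highest Mock mean and the largest and smallest fitted change, the highest gene of each line, genes with 3 reads or fewer throughout and genes with a promoter peak gained or lost in 2 or more lines; HOXA2, HOXA3, HOXA10, HOXA11, HOXB2, HOXB3, HOXB5, HOXB6, HOXB8, HOXB13, HOXC5, HOXC6, HOXC9, HOXC10, HOXC11, HOXC13, HOXD1, HOXD3, HOXD4, HOXD10 and HOXD13 were named after their values were seen.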

Additional observations from a re-analysis of the deposited data

Results flagged for a closer look

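Of 73 groups of 4 to 6 lines, 3 held a line far from the others, and chance gives about 1 in 20. HOXA4 in Mock CL1-0 stood at 1.57 on the log2(FPKM + 0.1) scale (2.86 FPKM, 118 reads), with the other lines between -3.32 and -1.55. The difference between DAC and Mock for HOXA11 in H1299 was 2.45 on the same scale (24 and 176 reads), with the other lines between -0.11 and 0.6. The ratio of HOXA11 there was 7.94 (95% exact interval 5.16 to 12.7, counting error only), and no peak lay at its canonical start in either H1299 library. The log2 ratio of covered bases over all HOX clusters was 0.41 in the libraries labelled PC9, with the other lines between 0.23 and 0.26.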

How the results depend on the processing

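The count of 0 HOX genes called for DAC held under each alternative run, while calls over all genes ranged from 0 to 53, and 199 with voom. Without the replicate block, 0 HOX genes were called and 0 were at an unadjusted p under 0.05, against 4 with it, and 10 genes were called in all. That 4 was 1 with quantile normalization, 2 with a mean of at least 1 FPKM and 2 to 4 leaving out 1 line. The 0 lower was 1 with quantile normalization and 0 to 2 leaving out 1 line. Leaving out 1 line gave 0 HOX calls each time. It gave 27 to 29 of 33 HOX genes differing between lines, against 11647 to 16345 of all 22603 genes tested. With a mean of at least 1 FPKM, 18 of 21 HOX genes differed, against 10679 of 13233 genes.

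The sum of 2-fold higher changes was 4 with a pseudocount of 1, 47 with 0.01 and 4 at 4-fold, and that of lower changes 0, 7 and 0, and 2 with a common sum. Genes with a listed peak gained averaged 6.75 per line (6.33 to 7.33 leaving out a line), and 4.0 with equal numbers of peaks, 4.0 at any annotated start, 3.5 at the canonical start and 1.75 with the last and equal numbers. Those lost averaged 2.0 (1.33 to 2.67), 5.25 with equal numbers of peaks, 1.0 at any annotated start and 5.75 at the canonical start with equal numbers. Genes with a peak averaged 22.0 to 23.7 in Mock and 27.0 to 28.3 after DAC leaving out a line. At the canonical start with equal numbers they averaged 14.5 after DAC. The Mock counts there were 19 in A549, 15 and 18 under the labels CL1-5 and PC9 and 22 in H1299. Covered bases changed by 0.24 to 0.3 leaving out a line. With equal numbers of peaks they changed by -0.14 in all clusters, 0.045 in HOXA, -0.36 in HOXB, -0.075 in HOXC and -0.027 in HOXD. With all listed peaks, the HOXD mean of 0.11 became -0.037 without H1299.

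Among the genes followed through each setting, which are those of the naming rule and those with a small unadjusted p, fitted changes of the opposite sign were HOXA13 0.0001831 without A549, HOXA4 -0.057 with quantile normalization, HOXA5 0.078 with H1792 added, 0.067 with voom and 0.0071 without CL1-5, HOXD8 -0.10 with a pseudocount of 1 and -0.14 without CL1-5, and HOXD9 -0.021 with a pseudocount of 1, -0.11 with voom and -0.068 without A549. The cause was not tested. Arms of 1 library limit each within-line value, and low read numbers limit HOXD.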
